A study of Mus musculus with 55 samples.

Results

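Oxidative phosphorylation is carried out by 5 enzyme complexes of the inner mitochondrial membrane, and most of their subunits are encoded in the nucleus. The genes described here were chosen by symbol: those beginning with Nduf, Uqcr, Cox4, Cox5, Cox6, Cox7, Cox8 or Atp5, plus Sdha, Sdhb, Sdhc and Sdhd, with a mean of at least 5 CPM (counts scaled to an equal total on genes in every library) over the samples of an experiment. Of 94 symbols that fit among 28492 genes, 81 passed in the maturation experiment, and of 95 among 28216 genes, 83 passed in the stimuli experiment. Both sets held 79 of them, and 85 passed in at least 1. The 81 were 35 subunits of complex I (Nduf), 8 complex I assembly factors (Ndufaf), 3 genes of complex II (Sdh), 8 of complex III (Uqcr), 12 of complex IV (Cox, with Ndufa4) and 15 of ATP synthase (Atp5). The 83 were 35, 8, 4, 8, 14 and 14.

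Just above the minimum were Ndufs5 with a mean of 5.10 CPM in the maturation experiment and Cox4i2 with 5.98 CPM in the stimuli experiment. Just below it were Sdhd with 4.99 CPM and Cox6b2 with 4.85 CPM in the first, and Ndufa4l2 with 2.24 CPM in the second. Cox7c, Cox7a1, Ndufab1, Atp5l and Atp5g2 were below 5 CPM in both, with 1.92 CPM for Cox7c in the maturation experiment and 1.63 CPM in the other. Cox8b had 0.101 CPM and 0.152 CPM, and Ndufs5-ps, which passed with 7.24 CPM in the stimuli experiment, is annotated as a transcribed pseudogene of Ndufs5, so that reads of both may be shared. All levels are of the transcript with the most counts of each gene, without the counts on its other transcripts, which together were larger. Of all counts, 18.5% in the maturation and 19.2% in the stimuli experiment matched no gene. A low level therefore need not mean low expression.

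In the respiratory chain, complexes I and II pass electrons from NADH and succinate to ubiquinone, complex III hands them to cytochrome c, and complex IV reduces oxygen. Complexes I, III and IV pump protons, and ATP synthase uses the resulting gradient to make ATP, which neurons spend largely on restoring ion gradients after electrical and synaptic activity. The catalytic cores of several complexes combine subunits of the nuclear and mitochondrial genomes, and many of the small nuclear subunits are accessory proteins that stabilise an enzyme or tune its activity.

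RNA came from neuron-enriched primary cultures of cortex and hippocampus of CD1 mouse embryos of mixed sex, taken at embryonic day 16.5, and 3′ ends of transcripts were counted by CEL-Seq2. The 28 samples of the maturation experiment were taken at 7 days in vitro (7DIV) or at the stage the study calls 21DIV, for which the titles give 23 DIV. At each stage, neurons were left unstimulated (basal) or were exposed for 15 or 180 min to 55 mM KCl, which depolarises the membrane, or to 50 µM bicuculline, which blocks GABA-A receptors, given with 4-aminopyridine (2.5 mM), which blocks potassium channels (Bic4AP). Each of these groups had 3 samples, except that Bic4AP at 21DIV had 2 for each time. The 27 samples of the stimuli experiment were all at 21DIV. They were basal (n = 3), or were treated for 15, 45 or 180 min with 55 mM KCl or with 50 µM bicuculline alone (Bic), with 2 samples for each time. A further arm was silenced for 48 h with 1 µM tetrodotoxin (TTX), a blocker of voltage-gated sodium channels. It was taken at 0 min (basalTTX, n = 4) or 15, 45 or 180 min after washout (TTXw, n = 3, 2 and 3). The study removed TTX by repeated exchange for fresh medium and states that control neurons were washed in the same way. The labels do not say which samples those controls were. Each stimulation was compared with basal and washout with basalTTX.

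For each gene the transcript with the most counts was used. Counts on these transcripts summed to between 1659722 and 4474968 per library at 7DIV. These sums, which are not the full library totals, lay between 1784170 and 14012872 at 21DIV of the maturation experiment. In the stimuli experiment they lay between 1177500 and 3909487. Nothing states that replicates were separate cultures, so p-values measure the spread between these samples, which may be technical. Markers of neurons such as Snap25, Syt1 and Map2 were present in every basal sample, and so were those of other cells. From 7DIV to 21DIV, the summed level of 9 astrocyte markers went from 588–863 CPM to 4645–5669 CPM, and that of 10 markers of the oligodendrocyte lineage from 474–750 CPM to 2496–3287 CPM. Of the tested ones, 8 of 9 and 9 of 9 passed as higher, while 9 neuronal markers went from 9841–10006 CPM to 7343–8457 CPM with 6 higher and 3 lower. Among microglial markers P2ry12, Cx3cr1 and C1qa were at or near 0, and the 7 summed to 17.8 CPM at most in basal samples of that experiment. In such bulk samples, a change in the number of cells of a type and a change in RNA per cell cannot be told apart.

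The first comparison asked how the nuclear genes of oxidative phosphorylation differed between unstimulated neurons at 21DIV and 7DIV. They were mostly higher at 21DIV: 41 of 81 passed an adjusted p under 0.05 as higher and 0 as lower, where 20.4% of the 10510 genes tested were higher and 17.9% lower. The median log2 fold change (21DIV over 7DIV) was 0.41 over the 81 genes and 0.01 over all genes, and 73 of 81 were above 0, as were 50.5% of all genes. Complex IV had the highest median of the 6 groups, 0.69, with 10 of 12 genes higher, against 0.42 with 18 of 35 for complex I, 0.35 with 7 of 15 for ATP synthase, 0.31 with 4 of 8 for complex III, 0.22 with 1 of 8 for assembly factors and 0.10 with 1 of 3 for complex II. Those that also met the threshold of the study for DEG, a change of at least 1.5-fold, numbered 24, all of them higher, with 18.2% of all genes. All tests here were edgeR's quasi-likelihood test, adjusted by the Benjamini-Hochberg method over all genes tested. The differences between complexes were not tested.

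**Figure D1:**
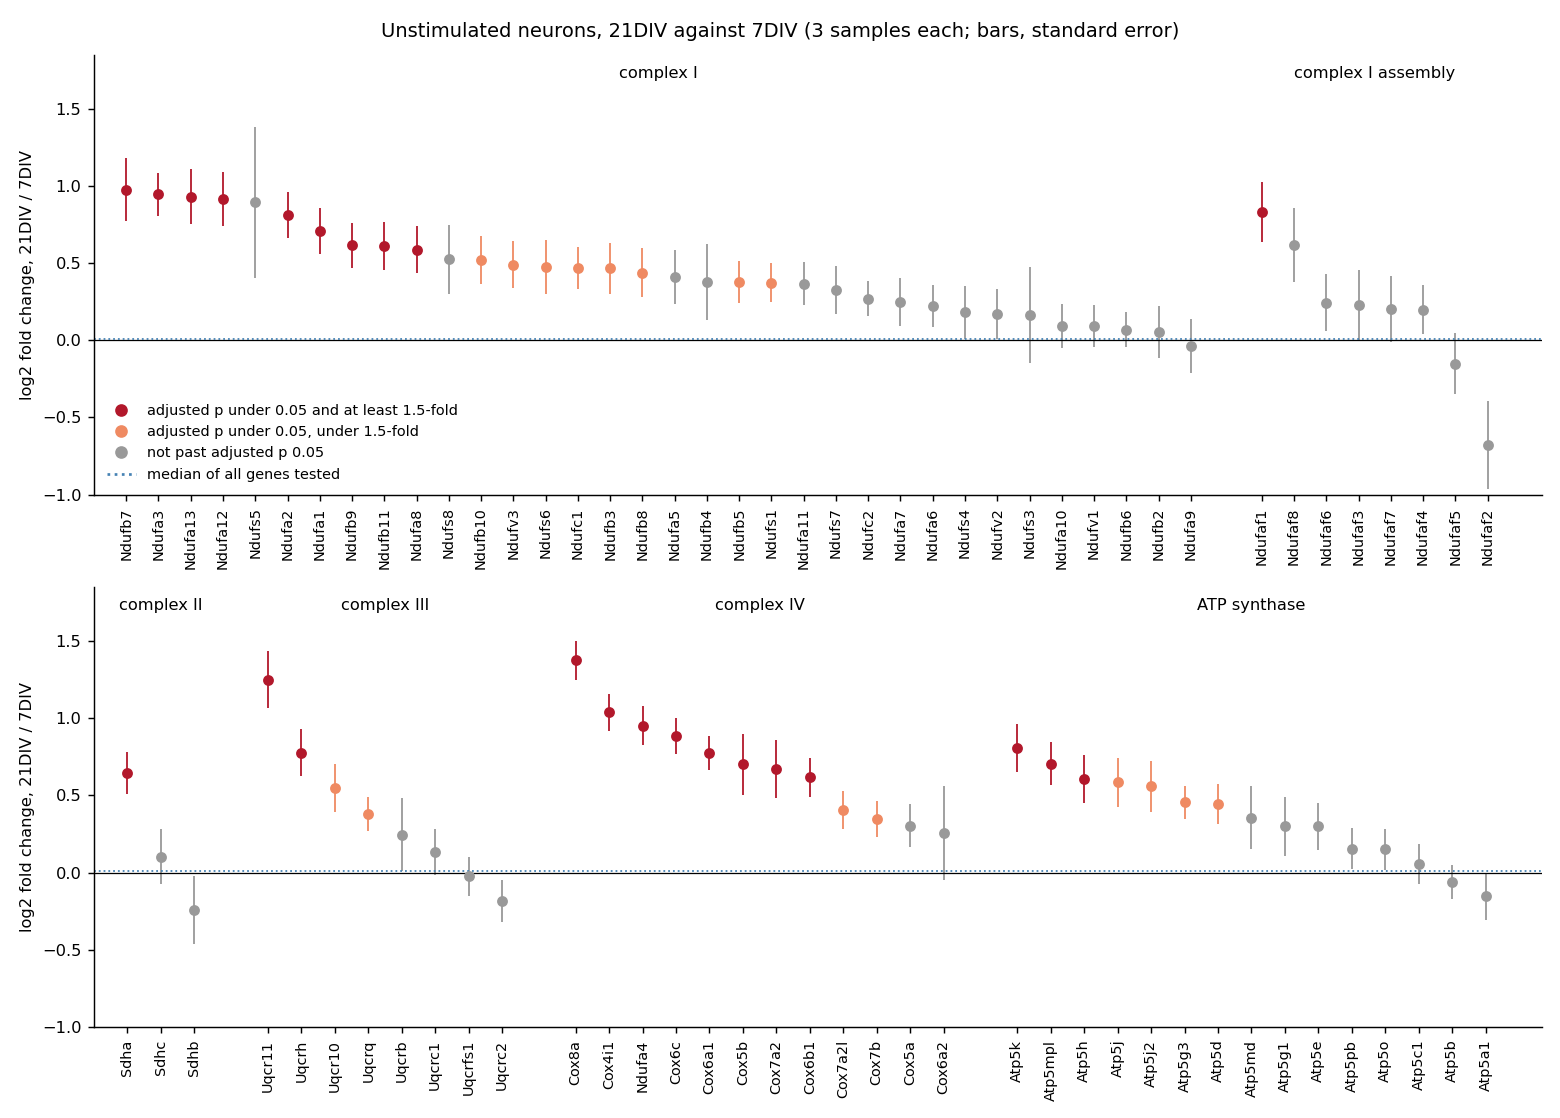
Log2 fold change of each of the 81 genes but 1 between basal neurons at 21DIV and 7DIV (vertical axis), grouped by complex along the horizontal axis and coloured where they passed the test; bars are standard errors from the fit of 6 samples. Complex IV genes reach 1.37 for Cox8a, all 12 lie above 0, and 8 of the 81 genes lie below 0.

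Complex IV, cytochrome c oxidase, is the terminal enzyme of the chain. Cox8a, its smallest common subunit, had 931, 1074 and 877 CPM in the samples at 7DIV and 2553, 2117 and 2656 CPM in those at 21DIV. The stages did not overlap, and its rise of 1.37 on the log2 scale (standard error 0.12, adjusted p = 1.68e-06), or 2.59-fold, was the largest of the 81. Cox4i1, the widely expressed form of the largest nuclear subunit, went from 329.7, 313 and 351 CPM to 687, 599 and 718 CPM, that is 1.04 on the log2 scale (standard error 0.12, adjusted p = 1.6e-05). Ndufa4, first named as a complex I protein and since assigned to complex IV, went from 374, 299 and 340.2 CPM to 696, 577 and 653 CPM, that is 0.95 on the log2 scale (standard error 0.13, adjusted p = 5.99e-05). For these genes every sample at 21DIV was higher than every sample at 7DIV, as it was for 48 of the 81 and for 24.8% of 11746 genes.

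Cox6c and Cox6a1 also rose without overlap, by 0.89 (standard error 0.12, adjusted p = 4.94e-05) and 0.77 (adjusted p = 9.7e-05) on the log2 scale. Cox6a1, the form of subunit VIa found in most tissues, had 846, 864 and 911 CPM at 7DIV and 1487, 1324 and 1585 CPM at 21DIV. Its partner Cox6a2, the form known from heart and skeletal muscle, had 76.7, 134.9 and 106.2 CPM at 7DIV and 189.7, 63.8 and 117.2 CPM at 21DIV. These ranges overlapped, and the difference of 0.26 (adjusted p = 0.541) did not pass. Cox5b (0.70, adjusted p = 0.0131), Cox7a2 (0.67), Cox6b1 (0.62), Cox7a2l (0.41) and Cox7b (0.35) were higher as well, while Cox5a, the other nuclear subunit numbered V, had 0.30 (adjusted p = 0.104). The 12 genes together held 4382–4507 CPM at 7DIV and 7012–8479 CPM at 21DIV.

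In complex III, ubiquinol-cytochrome c reductase, 4 of 8 genes rose. Uqcr11, its smallest subunit, had 26.9999, 28.8 and 29.5 CPM at 7DIV and 77.5, 55.8 and 66.4 CPM at 21DIV, that is 1.25 on the log2 scale (standard error 0.19, adjusted p = 0.000134), or 2.38-fold. Uqcrh, the hinge protein near cytochrome c1, rose by 0.78 (adjusted p = 0.00116), Uqcr10 by 0.55 and Uqcrq by 0.38 (adjusted p = 0.0152). The small subunit Uqcrb had 0.25 (adjusted p = 0.445) and did not pass. The core proteins Uqcrc1 and Uqcrc2 and the Rieske iron-sulfur protein Uqcrfs1 did not pass, with log2 fold changes of 0.13, -0.18 and -0.02 and adjusted p of 0.518, 0.306 and 0.895. Uqcrc2 had 263, 245 and 222 CPM at 7DIV and 236, 193 and 201 CPM at 21DIV, with overlap between the stages.

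Complex I, NADH dehydrogenase, had 34 of 35 genes above 0. Its largest rises that passed were accessory subunits. Ndufb7 went from 32.2, 22.1 and 39.5 CPM to 65.2, 57.05 and 62.8 CPM (log2 fold change 0.97, standard error 0.20, adjusted p = 0.00189), and Ndufa3 from 90.9, 90.8 and 96.4 CPM to 195, 154 and 177 CPM (0.94, standard error 0.14, adjusted p = 0.000147). Ndufa13 rose by 0.93, Ndufa12 by 0.92, Ndufa2 by 0.81 and Ndufa1 by 0.71. Of the catalytic core subunits, Ndufs1, which carries iron-sulfur clusters of the electron path, rose by 0.37 (adjusted p = 0.0306). Ndufv1, which binds NADH, had 108.9, 106.7 and 112.4 CPM at 7DIV and 108.1, 119.8 and 115.8 CPM at 21DIV, and its 0.09 (adjusted p = 0.621) did not pass.

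Of the 8 assembly factors of complex I, only Ndufaf1 passed, with 34.1, 23.3 and 26.004 CPM at 7DIV and 51.0, 46.9 and 48.1 CPM at 21DIV (log2 fold change 0.83, standard error 0.19, adjusted p = 0.00395). Ndufaf2 had the lowest value of the 81 genes, -0.68 (adjusted p = 0.0773), and did not pass. In complex II, succinate dehydrogenase, the flavoprotein gene Sdha went from 217, 269 and 209 CPM to 358, 374 and 331 CPM (0.64, standard error 0.13, adjusted p = 0.00189). Sdhb, the iron-sulfur subunit, and the membrane anchor Sdhc did not pass, at -0.24 and 0.10.

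In ATP synthase, 7 of 15 genes rose. Atp5k, which encodes the small membrane subunit e, went from 138, 158 and 156 CPM to 313, 211 and 251 CPM (log2 fold change 0.81, standard error 0.16, adjusted p = 0.00103), and Atp5mpl (0.71), Atp5h (0.61), Atp5j (0.58), Atp5j2 (0.56) and Atp5d (0.45) were also higher. Atp5md (0.35, adjusted p = 0.193) and Atp5e (0.30, adjusted p = 0.135), which encode other small subunits, did not pass. Atp5g3, 1 of 3 genes for the c subunit of the proton-driven ring, rose by 0.45 (adjusted p = 0.00502). The catalytic beta subunit Atp5b had 863, 991 and 1010.4 CPM at 7DIV and 892, 922 and 880.2 CPM at 21DIV, with overlap between the stages. The log2 fold changes of Atp5b, the alpha subunit Atp5a1 and the gamma subunit Atp5c1 were -0.06 (adjusted p = 0.699), -0.15 (adjusted p = 0.45) and 0.05 (adjusted p = 0.771), and none of these passed.

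**Figure D2:**
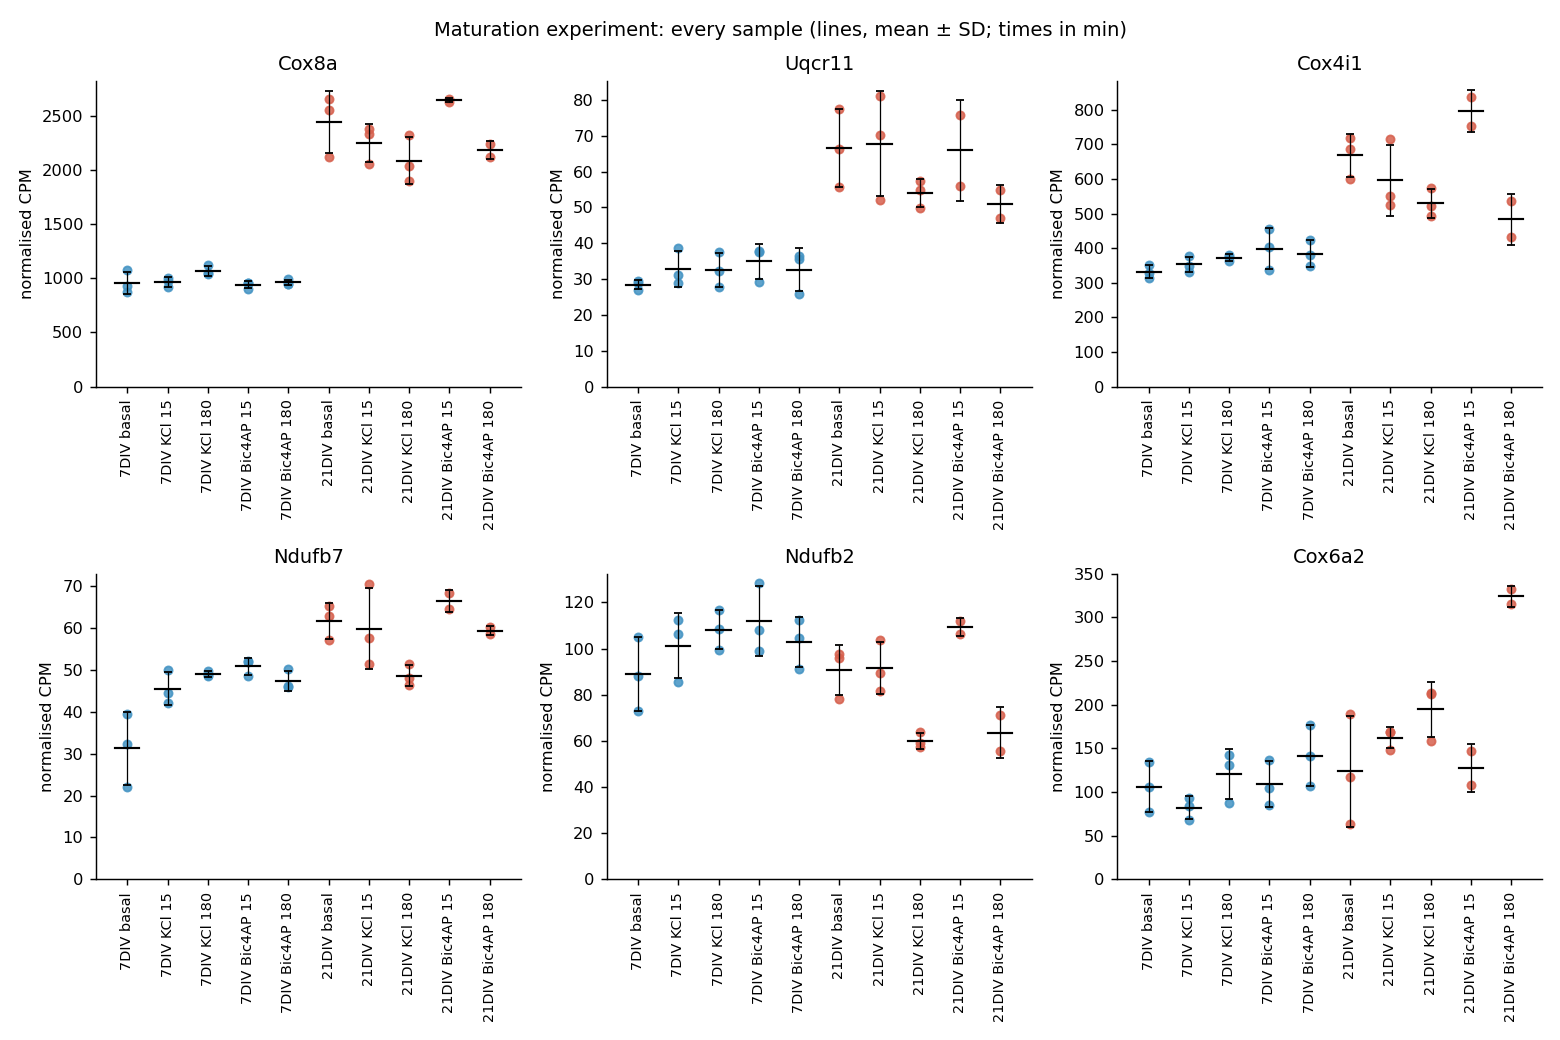
CPM of Cox8a, Uqcr11, Cox4i1, Ndufb7, Ndufb2 and Cox6a2 in each sample of the 10 groups of the maturation experiment; points are samples, wide lines group means and thin lines the SD. Cox8a, Uqcr11 and Cox4i1 are higher in every 21DIV basal sample than in any 7DIV basal sample, while Cox6a2 overlaps between basal groups and reaches 333 CPM with Bic4AP at 180 min and 21DIV.

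Of the 41 genes, 24 kept an adjusted p under 0.05 in each of the 6 fits that left out 1 sample, Cox8a, Cox4i1, Uqcr11, Ndufb7, Ndufa3, Sdha, Atp5k and Ndufaf1 among them. The number that passed fell to 27 without 7DIV replicate 2, and Cox7b, Ndufb3, Ndufb5, Ndufb8, Ndufs1 and Ndufs6 each lost the call in 5 of the 6 fits.

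Promoter sequences of 4 genes that rose in complexes I, III and IV are shown here, because many nuclear genes of this pathway are known targets of the factors NRF1, GABPA and YY1. Sequences of 250 bases before to 50 after the start, from RefSeq on GRCm38.p6, matched 69 of the genes, and Cox4i1 and Cox6a2 had no entry. Each is written 5′ to 3′ in the direction of the gene, with letters of the searched motif in capitals on either strand. The letters were CCGGAAGT (ETS, the family of GABPA) for Cox8a on chr19:7217567-7217866 (minus strand) and Uqcr11 on chr10:80406772-80407071 (minus strand), the NRF1 motif for Cox6a1 on chr5:115348909-115349208 (minus strand), and AAGATGGC (YY1) for Ndufa3 on chr7:3617123-3617422 (plus strand).
Cox8a: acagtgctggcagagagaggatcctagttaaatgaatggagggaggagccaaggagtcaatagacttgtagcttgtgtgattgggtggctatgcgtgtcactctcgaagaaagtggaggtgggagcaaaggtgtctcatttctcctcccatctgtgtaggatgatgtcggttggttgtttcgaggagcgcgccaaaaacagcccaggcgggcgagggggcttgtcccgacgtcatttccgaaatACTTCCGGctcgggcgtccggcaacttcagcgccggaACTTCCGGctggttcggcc
Uqcr11: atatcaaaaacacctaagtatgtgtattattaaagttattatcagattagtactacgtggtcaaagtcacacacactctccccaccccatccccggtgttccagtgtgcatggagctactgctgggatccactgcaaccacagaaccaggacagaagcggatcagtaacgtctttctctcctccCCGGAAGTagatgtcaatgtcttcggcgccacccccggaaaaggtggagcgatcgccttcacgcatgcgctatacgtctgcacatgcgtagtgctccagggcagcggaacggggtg
Cox6a1: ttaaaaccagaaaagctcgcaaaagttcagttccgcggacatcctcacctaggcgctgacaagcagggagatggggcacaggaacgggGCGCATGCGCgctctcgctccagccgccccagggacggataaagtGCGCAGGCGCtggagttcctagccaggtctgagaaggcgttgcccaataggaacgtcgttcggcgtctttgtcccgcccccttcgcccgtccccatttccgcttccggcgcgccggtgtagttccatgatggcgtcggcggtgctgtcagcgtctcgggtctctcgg
Ndufa3: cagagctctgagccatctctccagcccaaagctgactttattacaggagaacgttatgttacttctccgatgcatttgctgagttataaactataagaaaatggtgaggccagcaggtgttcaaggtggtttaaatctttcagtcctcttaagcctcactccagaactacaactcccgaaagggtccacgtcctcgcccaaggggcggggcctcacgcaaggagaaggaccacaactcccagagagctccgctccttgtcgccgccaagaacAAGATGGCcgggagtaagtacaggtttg

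Cox8a held the ETS letters at 2 places, on the opposite strand, and Cox6a1 held the NRF1 letters at 2 places. Over the 69 promoters, the NRF1 letters were present in 18 (26.1%), against 5.19% of 27025 promoters of all genes and 7.17% of those of protein-coding genes. The YY1 letters were present in 11 (15.9%), among them those of Ndufa3, Ndufb8, Ndufs7 and Atp5j, against 3.19% and 3.57%. The ETS letters were in 5 (7.25%; 4.31% and 5.69%), the letters TCAAGGTCA of estrogen-related receptors in 2 (2.90%; 0.466% and 0.377%) and TGACGTCA (CRE) in 4 (5.80%; 2.03% and 2.54%). The 2 shares are of all and of protein-coding genes. These are matches of letters in a window, not binding sites, and base composition was not matched between the sets. The 4 promoters shown are examples that hold a motif, and many of the 69 hold none. Promoters of genes that rose were not compared with those of genes that did not.

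Most of the genes that rose had short mRNAs, as had most genes of the set, a property that the choice by symbol did not use. The median mRNA length was 795 bases (315 to 3632) for the 84 genes with a length and 2162 bases for all genes. Members of up to 600 bases had a median log2 fold change of 0.71 between the stages with 14 of 23 higher, those of over 600 to 1000 bases 0.54 with 16 of 26 higher, those of over 1000 to 2000 bases 0.18 with 9 of 25 higher, and those over 2000 bases 0.20 with 2 of 7 higher. Other genes of the same classes had medians of 0.12, 0.11, 0.07 and -0.02, and 18.3%, 19.2%, 21.5% and 19.9% of them were higher. Across genes, Spearman's rho between length and log2 fold change was -0.50 over the 81 and -0.08 over all genes tested. These rho values describe genes, which share their libraries and are not independent replicates.

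**Figure D3:**
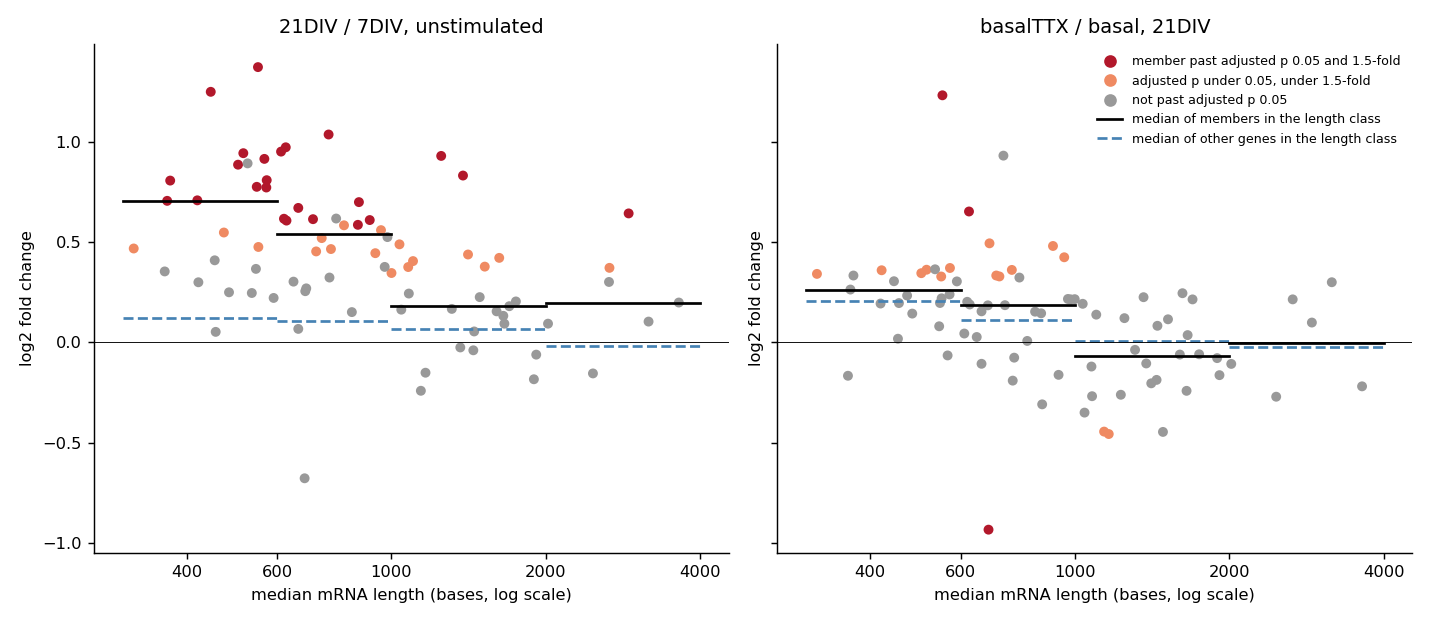
Log2 fold change against mRNA length (log axis, bases) for the stage comparison and for basalTTX over basal; points are the genes of oxidative phosphorylation, coloured where they passed, and solid and dashed lines are medians per length class of these and of all other genes. In the stage comparison members of up to 600 bases have a median of 0.71 against 0.12 for other genes, and with TTX 0.26 against 0.21.

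Other genes of mitochondrial metabolism were counted in lists, beside 20.4% of all genes higher and 17.9% lower. In a list of 38 other chain components and assembly factors, 8 of 37 tested were higher and 3 lower, with a median of 0.25. Sdhaf4 (1.34, adjusted p = 7.4e-05) and Cox17 (1.17, adjusted p = 0.000296), assembly factors of complexes II and IV, and Cycs, cytochrome c (0.59, adjusted p = 0.014), rose, while Coa7 (-0.87) and Acad9 (-0.75) fell. Of 15 tested genes of pyruvate dehydrogenase and the citric acid cycle, 3 were higher (Pdhb by 0.52, Idh3g by 0.46, Ogdh by 0.44) and citrate synthase, Cs, was lower at -0.32 (adjusted p = 0.0488). Among 10 regulators of mitochondrial biogenesis tested, only Ppargc1b, a coactivator, passed, at 1.73 (standard error 0.38, adjusted p = 0.00263), whereas Ppargc1a had 0.29, Nrf1 0.18, Tfam 0.23 and Yy1 -0.19, which did not pass. Of 7 tested carriers and channels, Vdac1 (0.45) and Vdac2 (0.39) were higher and Vdac3 (-0.61) was lower. The glial markers given above differed between the same samples, and their part in the stage difference was not tested.

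The next question was whether stimulation moved these genes within hours. Over 17 comparisons of a stimulated group with its own control in the 2 experiments, 26 of 1395 gene-by-comparison values passed an adjusted p under 0.05, or 1.864%, where 4.63% of 202211 values of all genes did. Of the 85 genes, 70 passed in none, 8 in 1 and 7 in 2 or more: Atp5g3, Cox4i1, Cox6a2 and Ndufaf4 in 3 each, and Ndufb2, Ndufc2 and Ndufs7 in 2 each. Comparisons of an arm share its control samples, so that these counts are not independent. Only 2 of the 26, Cox6a2 with Bic4AP at 180 min and Cox6a2 with KCl at 15 min, kept the call in every fit that left out 1 sample.

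In 10 of the 17 comparisons 0 of these genes passed. They were, with the percentage of all genes that passed, KCl at 15 min (0%) and Bic4AP at 15 (0%) and 180 min (0%) at 7DIV, Bic4AP at 15 min at 21DIV (0.0511%), Bic at 15 (4.1%) and 180 min (0.798%), KCl at 45 (0.865%) and 180 min (0.807%) in the stimuli experiment, and TTXw at 15 (0%) and 45 min (0.407%). At an unadjusted p under 0.05, edgeR's test gave 2, 3, 1, 7, 8, 4, 7, 2, 1 and 13 of the genes in the same order, where 5.61%, 6.75%, 5.97%, 5.29%, 16.5%, 8.56%, 11.2%, 12.5%, 6.3% and 10% of all genes passed. At an adjusted p under 0.05, DESeq2 gave 0 in each of these except Bic at 15 min, with 2. The immediate early genes Fos, Arc, Npas4, Egr1, Nr4a1 and Junb, listed as a check of the stimulus, had 0, 0, 0, 4, 6, 6, 3, 5, 0 and 6 of 6 higher in these 10 comparisons. At 7DIV their summed level was 484–724 CPM in basal neurons and overlapped with KCl at 15 min (550–634 CPM) and Bic4AP at 15 min (644–773 CPM). Where genes of oxidative phosphorylation passed, 4 to 6 of the 6 were higher.

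**Figure D4:**
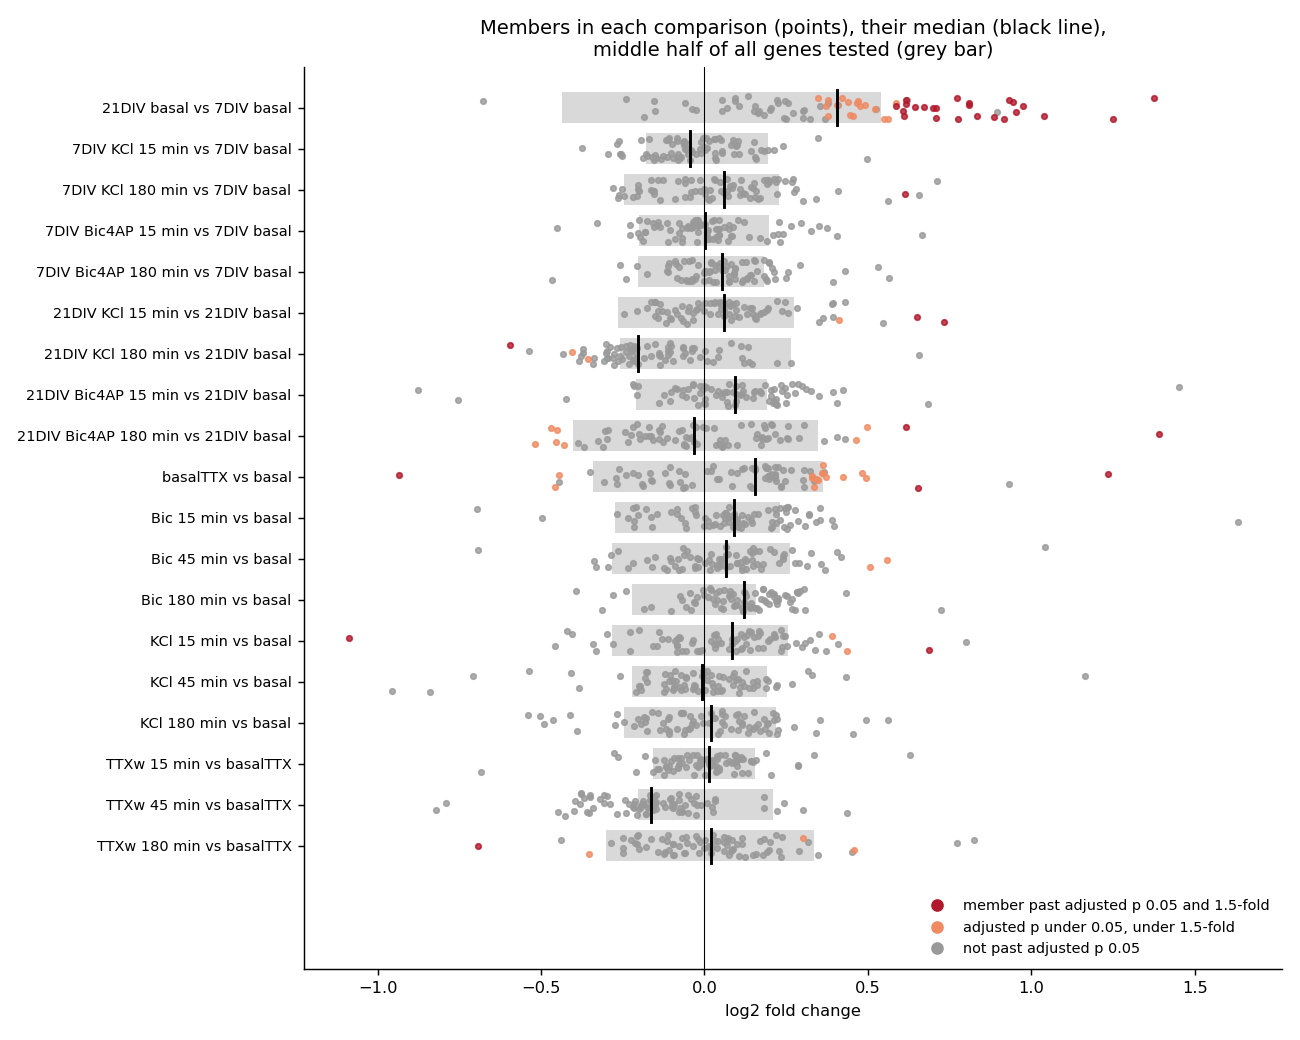
Log2 fold changes (horizontal axis) of the genes of oxidative phosphorylation (points) in the stage comparison, TTX and the 17 stimulations, with their median (black line) and the interquartile range of all genes tested (grey bar). The stage comparison has a median of 0.41, and the medians of the stimulations lie between -0.20 and 0.12.

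At 7DIV, 1 gene passed. Ndufb7 had 32.2, 22.1 and 39.5 CPM in basal neurons and 49.7, 48.5 and 48.8 CPM after 180 min of KCl, without overlap (log2 fold change 0.61, standard error 0.17, adjusted p = 0.0476, 1.11% of all genes higher by the test and 8.45% higher without overlap). The call was lost in 5 of the 6 fits without 1 sample of these groups, with an adjusted p of 0.262 and a value of 0.44 without basal replicate 3, the lowest sample. Astrocyte markers summed to 893–1200 CPM in these KCl samples against 588–863 CPM in basal ones. The log2 ratio of Xist to Y-linked genes, which rises with the share of female cells, was -0.14, 0.17 and -0.06 in the KCl samples. It was 0.82, 0.25 and 1.21 in the basal ones. The part of these in the call was not tested.

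At 21DIV, KCl at 15 min raised 3 of 81 genes (3.81% of all genes higher). Sdhb went from 81.8, 45.6 and 49.9 CPM to 93.0, 122 and 79.4 CPM, with overlap of 1 sample (0.73, standard error 0.19, adjusted p = 0.0131), Atp5md rose by 0.65 (adjusted p = 0.0468), and Ndufs7, a core subunit of complex I, by 0.41 (adjusted p = 0.0492). At 180 min of KCl, 3 genes fell, with 2.83% of all genes lower. Ndufb2, an accessory subunit of complex I, went from 95.8, 78.2 and 97.8 CPM to 57.4, 58.9 and 64.0 CPM (-0.59, standard error 0.15, adjusted p = 0.016), and Atp5o and Atp5g3 fell by 0.41 and 0.36. At this time 15 of the 81 genes were above 0 (48.3% of all genes), with a median of -0.20 against -0.02 over all genes, and 20 had an unadjusted p under 0.05 (20.7% of all genes). All 15 genes of ATP synthase had values below 0, from -0.41 for Atp5o to -0.01 for Atp5c1. Each of the 6 calls with KCl at 21DIV was lost in 2 to 5 of the fits without 1 sample. Markers of the oligodendrocyte lineage summed to 1995–2235 CPM at 15 min and 1275–1739 CPM at 180 min of KCl, below the 2496–3287 CPM of basal neurons, and astrocyte markers to 4186–4753 and 2853–6017 CPM against 4645–5669 CPM. Their part in these changes was not tested.

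Bic4AP at 180 min was the stimulation with the most calls at 21DIV: 4 of 81 genes higher (8.79% of all genes) and 5 lower (8.32%). These 9 were 11.1% of the 81, a smaller share than the 17.1% of all genes that passed. Cox6a2 had 189.7, 63.8 and 117.2 CPM in basal samples and 333 and 315 CPM after Bic4AP, without overlap (as higher, 23.2% of all genes), that is 1.39 on the log2 scale (standard error 0.28, adjusted p = 0.000836), or 2.62-fold. Without each sample in turn it lay between 1.08 and 1.82 and kept the call. Ndufaf5, an assembly factor of complex I, rose by 0.62 (34.9, 34.9 and 31.2 CPM to 53.4 and 49.6 CPM), Ndufs7 by 0.50 and Uqcrh by 0.46, and the calls of these 3 were lost in 4, 3 and 4 of the 5 fits without 1 sample.

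Among the genes that fell with Bic4AP, Ndufb2 went from 95.8, 78.2 and 97.8 CPM to 55.6 and 71.3 CPM (-0.52, adjusted p = 0.0343) and Cox4i1 from 687, 599 and 718 CPM to 431 and 535 CPM (-0.47, adjusted p = 0.0193). Uqcrfs1 and Ndufc2 fell by 0.45 each, and Atp5g3 by 0.43 (adjusted p = 0.00521). For these genes the groups did not overlap, but each of the calls was lost without Bic4AP replicate 2, with Cox4i1 at -0.32 (adjusted p = 0.295) and Ndufb2 at -0.35 (adjusted p = 0.375). Of all genes, 24.1% were lower in every Bic4AP sample at 180 min than in every basal sample. In the same samples the summed astrocyte markers were at 1762–3386 CPM against 4645–5669 CPM in basal neurons, and those of the oligodendrocyte lineage at 1071–1728 CPM against 2496–3287 CPM, and their part in these changes was not tested.

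Whether responses differed between 21DIV and 7DIV was tested with both times together. For KCl the response differed for 2 of 81 genes (2.06% of all genes). Ndufb7 had a difference (21DIV minus 7DIV) of -0.53 at 15 min and -0.95 at 180 min (adjusted p = 0.0446): after 180 min it was at 51.4, 48.1 and 46.5 CPM at 21DIV and at 49.7, 48.5 and 48.8 CPM at 7DIV, so that the stages, which did not overlap in basal neurons, met. Ndufb2 had -0.18 and -0.87 (adjusted p = 0.0435), with 99.5, 116.5 and 108.5 CPM at 7DIV after 180 min.

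For Bic4AP the response differed for 3 genes (4.17% of all genes). Ndufs3, a core subunit of complex I at a low level, had a difference of 1.90 at 15 min and -0.76 at 180 min (adjusted p = 0.0244), and its 15 min samples at 21DIV were at 45.1 and 24.4 CPM against 15.0, 9.84 and 12.6 CPM in basal neurons. Cox4i1 had -0.01 and -0.68 (adjusted p = 0.0417), and Uqcrq, a small subunit of complex III, 0.30 and -0.49 (adjusted p = 0.0375). All 5 calls between stages were lost in 5 to 14 of the fits that left out 1 sample.

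In the stimuli experiment, 48 h of TTX was the condition with the most calls. It had 17 of 83 (20.5%), a smaller share than the 30.5% of all genes that passed. Of 83 genes, 14 were higher in basalTTX than in basal neurons and 3 were lower, where 14.4% of the 12027 genes tested were higher and 16.1% lower. The 14 became 6 without a filter on low counts and 3 with the replicate number as a block. The median log2 fold change was 0.16, against 0.00 over all genes, and 56 genes were above 0 (50% of all genes). The higher genes were 7 of 35 in complex I, 4 of 14 in complex IV and 3 of 14 in ATP synthase, with 0 of 8 in complex III, 0 of 4 in complex II and 0 of 8 assembly factors. The 83 genes together held 18074–19295 CPM in basal samples and 19866–21779.8 CPM in basalTTX.

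Only 3 genes met the 1.5-fold threshold (21.6% of all genes), 2 of them tissue forms of complex IV subunits that went in opposite directions. Cox6a2 had 99.996, 102 and 105 CPM in basal neurons and 48.6, 61.0, 36.5 and 64.4 CPM in basalTTX, that is -0.93 on the log2 scale (standard error 0.18, adjusted p = 6.93e-05). Cox6b2, known as the testis form of subunit VIb, had 14.6, 13.4 and 14.4 CPM in basal neurons and 37.2, 51.1, 21.5 and 24.6 CPM in basalTTX, that is 1.23 on the log2 scale (standard error 0.26, adjusted p = 0.000229). The groups overlapped for neither gene. Of all genes, 16.4% were higher and 18.8% lower without overlap. The widely expressed partners Cox6a1 and Cox6b1 had 0.24 (adjusted p = 0.0946) and 0.20 (adjusted p = 0.139) and did not pass.

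Ndufb7 went from 26.1, 32.4 and 23.9 CPM to 49.2, 52.3, 33.6 and 37.97 CPM (0.65, standard error 0.20, adjusted p = 0.00968), and lost the call without basal replicate 5 (0.57, adjusted p = 0.0532). Ndufc2, the most abundant of the 83 by count, went from 1758, 1698 and 1715 CPM to 2573, 2336, 2272 and 2531 CPM (0.49, standard error 0.10, adjusted p = 0.000225), and Cox4i1 from 309.7, 330.5 and 329.8 CPM to 429, 373, 407 and 451 CPM (0.36, adjusted p = 0.00409). Ndufb11 (0.48), Atp5j2 (0.43), Ndufa2 (0.37), Cox6c (0.35), Atp5g3 (0.33) and Cox8a (0.33) were also higher. Besides Cox6a2, the genes that fell were Ndufaf5 by 0.46 (adjusted p = 0.0206) and Sdhb by 0.44 (adjusted p = 0.0258).

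The genes that were higher with TTX had short mRNAs: 7 of 23 genes of up to 600 bases and 7 of 27 of over 600 to 1000 bases were higher, and 0 of 26 and 0 of 6 in the longer classes. Median log2 fold changes of the 4 classes were 0.26, 0.19, -0.07 and 0.00, and those of other genes of these lengths 0.21, 0.11, 0.01 and -0.02. Of other genes in the classes 15.6%, 15.6%, 13.6% and 14.5% were higher. Spearman's rho between length and log2 fold change was -0.47 over 82 of the genes and -0.03 over all genes. The number of higher genes fell to 5 without basal replicate 5 and was 9 to 17 without each other sample, and 6 of the 17 calls (Cox6a2, Cox6b2, Ndufc2, Ndufb11, Cox4i1 and Cox6c) held in each of the 7 fits.

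Other mitochondrial genes were counted in lists, beside the 14.4% of all genes higher and 16.1% lower. Of 16 citric acid cycle and pyruvate dehydrogenase genes, 4 were lower, among them Idh3a (-0.81, adjusted p = 1.41e-05), Dld (-0.58) and Sucla2 (-0.47), and Idh3g was higher at 0.30. Cytochrome c, Cycs, fell by 0.51 (adjusted p = 0.00243), and of 38 other chain and assembly genes 2 were higher and 3 lower. The mitochondrial RNA polymerase Polrmt rose by 0.71 and Gabpa by 1.00, as 2 of 12 regulators tested, and 0 of 8 carriers passed, while Fos, Arc, Npas4, Egr1, Nr4a1 and Junb were all lower. Astrocyte markers summed to 2621–3221 CPM in basal neurons and 7409–8456 CPM in basalTTX, with 9 of 9 higher, and those of the oligodendrocyte lineage to 815–1257 and 2250–2299 CPM. Neuronal markers summed to 9000–9684 CPM in basal neurons and 6983–8134 CPM in basalTTX, with 1 of 9 higher and 3 lower. The log2 ratio of Xist to Y-linked genes, which rises with the share of female cells, was 0.94–1.23 in basal and 1.66–2.21 in basalTTX samples. The part of these in the TTX result was not tested, and a different mix of embryos cannot be told apart from the treatment.

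**Figure D5:**
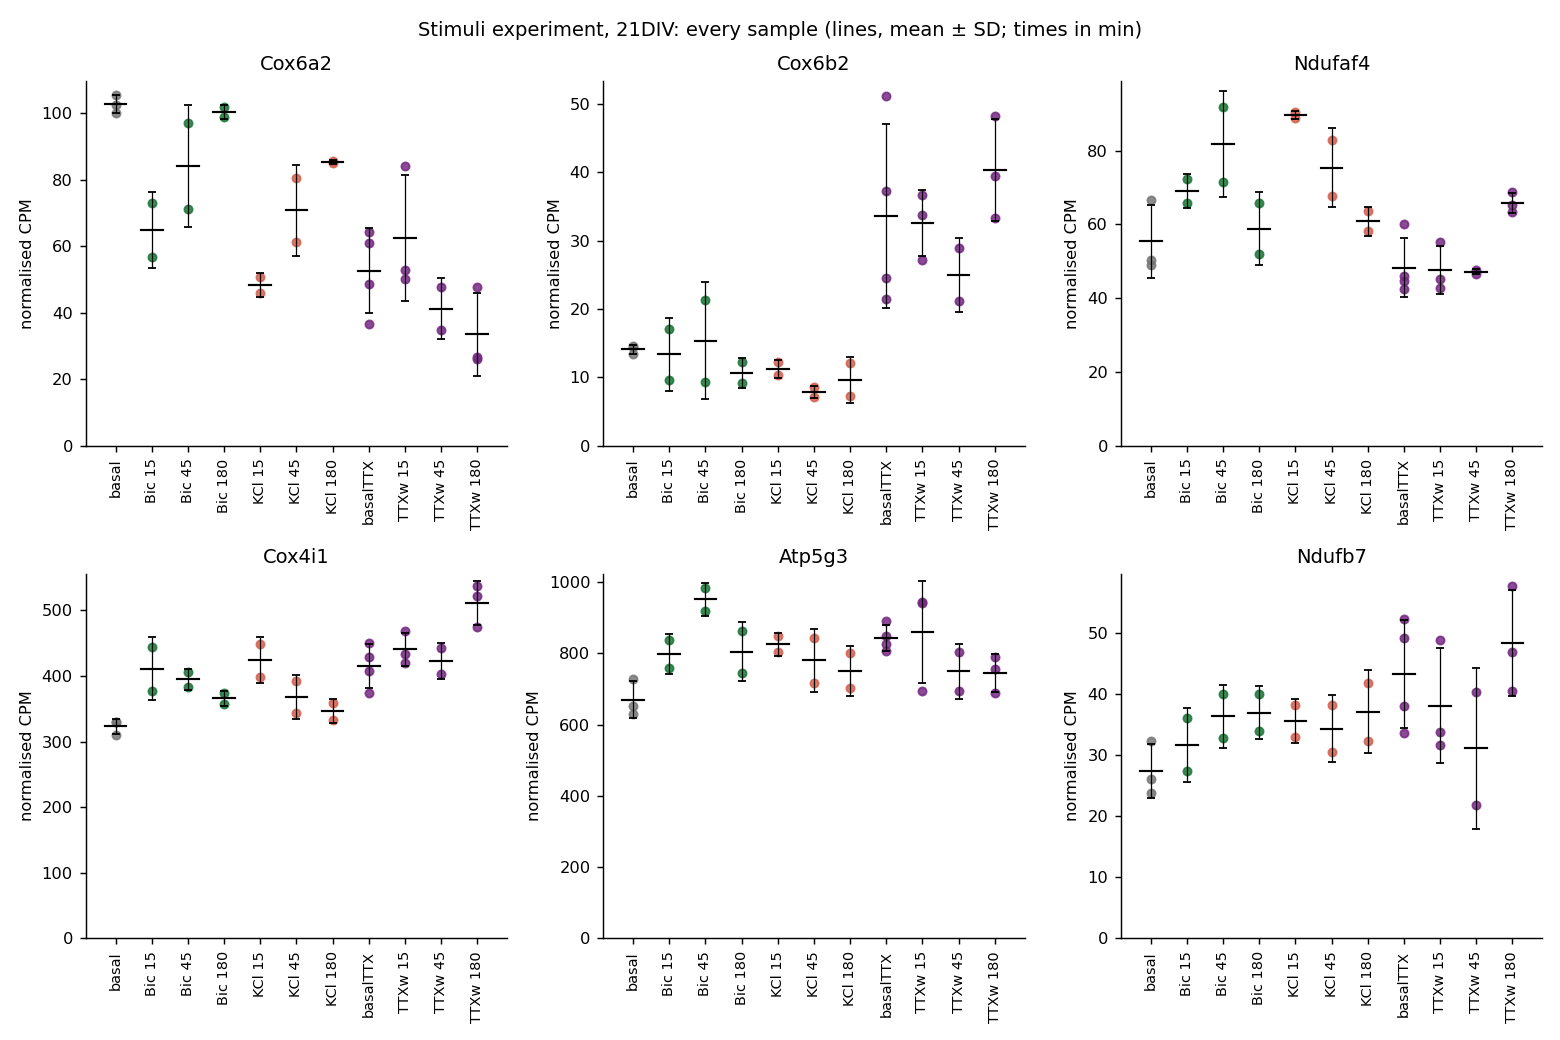
CPM of Cox6a2, Cox6b2, Ndufaf4, Cox4i1, Atp5g3 and Ndufb7 in each sample of the 11 groups of the stimuli experiment; points are samples, wide lines group means and thin lines the SD. Cox6a2 is at 99.996 to 105 CPM in basal samples, at 36.5 to 64.4 CPM in basalTTX and at 45.8 and 50.8 CPM after 15 min of KCl, and Cox6b2 is at 21.2 CPM or more in all silenced and washed-out samples.

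Washout of TTX was compared with basalTTX. At 180 min, 2 of 83 genes were higher (9.64% of all genes) and 2 lower (10.6%). Cox6a2 went further down, from 48.6, 61.0, 36.5 and 64.4 CPM to 47.8, 26.02 and 26.6 CPM (-0.69, standard error 0.21, adjusted p = 0.0179), with overlap, and Ndufa4 fell by 0.35 (adjusted p = 0.0482). Ndufaf4, an assembly factor of complex I, went from 44.6, 42.4, 60.1 and 45.9 CPM to 68.7, 63.4 and 65.3 CPM (0.46, standard error 0.16, adjusted p = 0.0347), and Cox4i1 rose by 0.30 (adjusted p = 0.0242). Each of the 4 calls was lost in 3 to 6 of 7 fits without 1 sample. Astrocyte markers stood at 10873–15207 CPM and neuronal markers at 4307–5253 CPM at that time, and their part was not tested. Among regulators, the coactivator Ppargc1a fell by 0.86 (adjusted p = 8.07e-05), where 10.6% of all genes were lower. Values of the other regulators at this time are not given here, and a link to the genes of oxidative phosphorylation was not tested. At 45 min no gene passed, and 11 of 83 were above 0 (49.4% of all genes), with a median of -0.16 against 0.00 over all genes. By length, the medians were -0.19, -0.17, -0.10 and 0.00 from the shortest class to the longest, and those of other genes -0.14, -0.16, -0.09 and 0.03.

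With Bic alone, 2 genes passed at 45 min, both higher (5.43% of all genes): Atp5g3 went from 729, 653 and 630.4 CPM to 919 and 984 CPM (0.50, standard error 0.12, adjusted p = 0.00511), and Ndufaf4 rose by 0.56 (adjusted p = 0.0257). Atp5g3 lost the call in 1 of the 5 fits without 1 sample and Ndufaf4 in 3, both without Bic replicate 2, with Ndufaf4 at 0.39 (adjusted p = 0.383). With KCl at 15 min, 3 genes were higher (5.56%) and 1 lower (3.3%). Ndufaf4 went from 66.8, 49.1 and 50.4 CPM to 89.0 and 90.4 CPM (0.69, standard error 0.16, adjusted p = 0.00477), without overlap (as higher, 20.3% of all genes). Ndufc2 rose by 0.44 (adjusted p = 0.0159) and Cox4i1 by 0.39 (adjusted p = 0.0247). Ndufaf4 and Ndufc2 lost the call without KCl replicate 2, at 0.70 (adjusted p = 0.0535) and 0.33 (adjusted p = 0.261), each in 1 of 5 fits, and Cox4i1 lost it in 3 of 5, with 0.34 (adjusted p = 0.183) without KCl replicate 1. Astrocyte markers summed to 5192–5885 CPM with Bic at 45 min and 4755–4793 CPM with KCl at 15 min against 2621–3221 CPM in basal neurons, and those of the oligodendrocyte lineage to 1382–1606 and 1444–1585 CPM against 815–1257 CPM, without overlap. The log2 ratio of Xist to Y-linked genes was 0.48–0.52 with KCl at 15 min, below the basal samples. The part of these in the calls, that of Cox6a2 with KCl among them, was not tested.

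Cox6a2 passed with TTX and in 3 stimulations, in both directions. With KCl at 15 min in the stimuli experiment it was at 50.8 and 45.8 CPM against 99.996, 102 and 105 CPM in basal neurons (-1.09, standard error 0.21, adjusted p = 0.00067), and at 180 min at 85.6 and 84.9 CPM (-0.27, adjusted p = 0.668). With KCl at the same dose and times in the maturation experiment, where the titles give 23 DIV and not 21 DIV, it did not pass, at 0.39 (adjusted p = 0.389) and 0.66 (adjusted p = 0.127). These values rest on single basal samples: without basal replicate 1, the highest, they were 0.82 (adjusted p = 0.0279) and 1.09 (adjusted p = 0.00667) and passed, and without basal replicate 2, the lowest, 0.08 and 0.35. At 180 min it also passed, as higher, without a filter on low counts. It was at 61.2 and 80.4 CPM after 45 min of KCl and at 56.7 and 72.9 CPM after 15 min of Bic, below every basal sample (as for 15.9% and 17.9% of all genes), without passing. With Bic alone at 180 min it was at 98.9 and 102 CPM, whereas with Bic4AP it rose as given above, but these were in different experiments. The difference between experiments was not tested. Cox6b2 stayed between 7.20 and 21.4 CPM with KCl or Bic, and between 21.2 and 48.3 CPM after TTX washout, with no call in any of these.

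Over the 79 genes in both, KCl gave changes of the same sign in 34 at 15 min and in 39 at 180 min. At 15 min 3 of them were called in the maturation and 4 in the stimuli experiment, with 0 in both. At 180 min 3 and 0 were called, so that no call could be shared. The same counts were not made over all genes. The medians were 0.06 in the maturation and 0.09 in the stimuli experiment at 15 min, and -0.20 and 0.02 at 180 min.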

How the data were processed

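The authors deposited raw counts per RefSeq transcript for each experiment, made from CEL-Seq2 3′ reads aligned with STAR to mm10 and counted with ESAT. Whether molecular identifiers were collapsed is not given in the sources used here. Accessions were matched to symbols of RefSeq GRCm38.p6 (80.8% and 80.9% of transcripts), and 18.5% and 19.2% of counts stayed unmatched. For each gene the transcript holding the highest total was used, so that counts on other transcripts were left out and levels are not comparable between experiments. The sum over all matched transcripts exceeded the counts kept 3.13-fold (maturation) and 3.29-fold (stimuli). Whether the same reads had been counted on several transcripts of a gene was not tested, so the share of reads left out is not known. Genes that exceeded 5 CPM in 2 or more libraries entered the tests, made with edgeR 4.0.16 (R 4.3.3), TMM scaling and the quasi-likelihood F-test, with Benjamini-Hochberg adjustment at 0.05 over all genes. CPM values given per sample are TMM-scaled. The stage comparison was fitted on its 6 samples, all others in a single fit per experiment, and stage differences were tested on both times together. DEG needed a 1.5-fold change. DESeq2 1.42.0, other scaling, filters, transcript sums, thinning and samples left out were alternatives. Tests were checked on simulated counts.

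Genes named were the 3 largest rises and falls that passed, every DEG where 10 or fewer, and fixed subunits of each complex, of which 1 is not reported here. Other genes named were chosen after their values were seen. The members and lists were chosen with earlier results of these data known. Replicate pairs differed by more than sampling noise (chi-square per degree of freedom 2.17 to 20.2). mRNA lengths were medians from GENCODE M21.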

Additional observations from a re-analysis of the deposited data

Results flagged for a closer look

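The response to stimulation differed between 21DIV and 7DIV for 5 genes by edgeR's quasi-likelihood test of both times together. They were 2 of 81 with KCl (2.06% of all genes) and 3 of 81 with Bic4AP (4.17% of all genes). Each call was lost in some of the fits that left out 1 sample, as given above. Values are 21DIV minus 7DIV on the log2 scale, at the time with the larger difference. With KCl at 180 min the differences were -0.87 for Ndufb2 and -0.95 for Ndufb7. With Bic4AP they were -0.68 for Cox4i1 and -0.49 for Uqcrq at 180 min, and 1.90 for Ndufs3 at 15 min. The basalTTX samples were the only group of 4 or more, and for none of 26 measures (named genes and the summed level of each complex) did 1 of its samples stand apart from the others by Dixon's test.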

How the results depend on the processing

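Counts here are genes that met the DEG threshold, unless said otherwise. Without the 1.5-fold minimum they were 41 between stages, 3 with KCl and 9 with Bic4AP at 180 min and 21DIV, 17 with TTX, 2 with Bic at 45 min, 4 with KCl at 15 min and 4 with TTXw at 180 min of the stimuli experiment. Without a filter on low counts they were 0 with KCl at 180 min and 7DIV, 1 with Bic4AP at 15 min and 1 at 180 min and 21DIV, and 2 with Bic at 15 min, and 6 genes instead of 14 passed the adjusted p as higher with TTX. With only the compared groups fitted they were 0 with KCl at 180 min and 7DIV, 0 at 15 and 0 at 180 min and 21DIV, and 2 with Bic at 15 min. With counts summed over transcripts they were 1 with KCl at 15 min and 21DIV, 0 and 0 for the stage differences in KCl and Bic4AP response, and 0 with TTXw at 180 min. RLE scaling gave 0 with KCl at 180 min and 21DIV and 1 with Bic at 45 min, and DESeq2 gave 0 and 1, and 5 for the stage difference in KCl response. Leaving out 1 sample gave 17 to 27 between stages, 2 to 3 with TTX, 0 to 1 with KCl at 180 min and 7DIV, and at 21DIV 0 to 3 and 0 to 1 with KCl at 15 and 180 min and 1 to 4 with Bic4AP at 180 min. It gave 0 to 5 and 0 to 4 for the stage differences in KCl and Bic4AP response, and in the stimuli experiment 0 to 1 and 0 to 2 with Bic at 15 and 45 min, 1 to 3 with KCl at 15 min and 0 to 1 with TTXw at 180 min.

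Replicate numbers did not pair samples: the deviations of same-numbered samples had a mean correlation of -0.01 over 48 pairs and 0.002 over 96 pairs, with 1 pair above 0.1 in each. With the replicate block, 18 genes were DEG between stages and 23 passed the adjusted p as higher, 1 gene was DEG with KCl at 15 min and 21DIV, 1 and 1 for the stage differences in KCl and Bic4AP response, and 0 with TTXw at 180 min, and 3 genes passed as higher and 2 as lower with TTX. After thinning to the smallest library, 32 genes passed as higher between stages. No called value changed direction under any alternative run, and 2 to 4 samples per group limit the small changes that can be seen.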

Other observations

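Some genes of the set were measured at very different levels in unstimulated 21DIV neurons of the 2 experiments. Cox5b was at 65.0 ± 15.5 CPM (SD, n = 3) in the maturation and 10.8 ± 1.28 CPM (n = 3) in the stimuli experiment, and Uqcrc1 at 84.5 ± 7.07 and 19.9 ± 5.39 CPM. Atp5g1 was at 88.1 ± 20.9 CPM in the first and below the minimum in the second. The transcript with the most counts was chosen in each experiment separately, and its part in these gaps was not tested.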
